A study of Mus musculus with 6 samples.

Results

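Neurotrophic factors and their receptors were followed in whole sciatic nerve of mice, a large peripheral nerve of the leg that holds axons, Schwann cells, fibroblasts, vessels and resident immune cells. The members were chosen by name, as a list of 9 genes made up of the ligands Bdnf, Ntf3, Cntf and Gdnf and the receptor genes Ngfr, Ntrk2, Ntrk3, Gfra1 and Ret, and 7 of the 9 could be measured among 22180 genes tested. Ntf3 was on no probe set with a gene name used here and Cntf only on a probe set that carries 3 gene symbols, so both were not analysed here. The samples were 3 nerves of Srebf-1c KO mice and 3 of their wild-type littermates, all 10 months of age, with RNA of each hybridised to 1 Affymetrix whole-transcript array. Srebf-1c is a form of the transcription factor gene Srebf1 known for driving fatty acid synthesis. The labels do not say how the gene was disrupted, in which cells it is lost, or whether each array came from a separate mouse, so p-values reflect how these samples varied, part of which may be technical.

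Neurotrophic factors are secreted proteins that keep neurons alive and guide the growth of their axons. BDNF acts through the receptor tyrosine kinase TrkB, the product of Ntrk2, and NT-3 through TrkC, the product of Ntrk3, while p75, the product of Ngfr, binds all neurotrophins. GDNF binds GFRα1, the product of Gfra1, which is held on the cell surface by a lipid anchor and signals through the tyrosine kinase Ret. In adult nerve, Schwann cells are known as a source of trophic factors for axons, and Schwann cells that lose contact with axons are known to make more p75, GDNF and BDNF.

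The stretch before the start of Ngfr is shown because Ngfr was the 1 measured member whose groups did not overlap, and short stretches of Bdnf and Gdnf because these ligand genes share a motif. All are RefSeq sequences of the mouse build GRCm38.p6, from a table of promoters that matched 7 of the 9 genes, with 15 starts in all; Ntrk3 and Ret were not matched. In the 250 bases before each start, 4 motifs were searched on both strands. The first lies at chr11:95587699-95587948 on the minus strand, 70.4% G and C, with 4 copies of the GC box GGGCGG in capitals. The other sequences lie at chr2:109692371-109692435 and chr15:7809968-7810032, both on the plus strand, with the half-site TGACG of the cAMP response element, read on the other strand, in capitals.
Ngfr: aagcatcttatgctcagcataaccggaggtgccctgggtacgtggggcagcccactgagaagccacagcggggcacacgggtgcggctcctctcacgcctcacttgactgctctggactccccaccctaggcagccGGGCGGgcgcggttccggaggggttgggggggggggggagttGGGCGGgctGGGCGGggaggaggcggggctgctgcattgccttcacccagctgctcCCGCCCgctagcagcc
Bdnf: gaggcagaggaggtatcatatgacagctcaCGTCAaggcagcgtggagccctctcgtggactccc
Gdnf: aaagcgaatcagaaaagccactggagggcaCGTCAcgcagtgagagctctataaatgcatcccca

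The GC box was found in 5 of the 15 member promoters, those of Bdnf, Ntf3 and Ngfr, and in 32.7% of 32851 mouse promoters of the same length. The half-site was found in 2 of 15, at 1 of the 7 Bdnf starts and 1 of the 2 Gdnf starts, and in 17.8% of all promoters. The sterol element TCACNCCAC, a sequence bound by SREBP proteins, was found in 0 of 15 and in 1.05% of all promoters, and the E-box CACGTG in 1 of 15, in Ntf3, and in 6.02% of all promoters. These are matches of letters in a short window, and binding was not measured.

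Array medians ran from 115.5 to 122.6 in intensity over 41077 probe sets. Srebf1 had a log2 intensity of 9.53, 9.55 and 9.70 in wild type and 8.11, 8.06 and 8.04 on the arrays titled KO, a log2 fold change of -1.52 ± 0.11 (SE), and no other gene passed an adjusted p of 0.05 in limma. The Schwann cell markers that define the tissue were bright: Pmp22, a protein of compact myelin, lay between 13.44 and 13.67 on the log2 scale and Sox10, the transcription factor of the Schwann lineage, between 10.58 and 11.57. Markers of neighbouring tissue were present too. The summed intensity of 9 adipocyte markers ran from 7454 to 31130 in wild type and from 6204 to 30890 in the knockouts, and that of 10 skeletal muscle markers from 37390 to 91620 in wild type and from 52320 to 85780 in KO.

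None of the 7 measured neurotrophic genes passed a test of the difference between the genotypes. With limma and Benjamini-Hochberg adjustment over all genes, 0 of the 7 measured genes passed an adjusted p of 0.05, which 0.00451% of all genes passed, and their smallest adjusted p was 0.870. The count was also 0 of 7 with the p unadjusted and under 0.05, against 5.83% of all genes, and the unmoderated test that the study used gave 0 of 7 before and after adjustment. The criterion stated with the study, at least 1.5-fold with an unadjusted p under 0.05, was met by 0 of 7 and by 1.19% of all genes. Of the 7, 6 had a lower mean in KO, as had 56.9% of all genes, and the median log2 fold change was -0.16 against -0.032 over all genes. Leaving out 1 array moved the median of the members to between -0.23 (without KO replicate 2) and -0.055 (without KO replicate 1). Gfra1, 1 of these 6, had a higher mean in KO after quantile normalization (0.0099) or with the arrays brought to 1 median (0.0083).

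**Figure D1:**
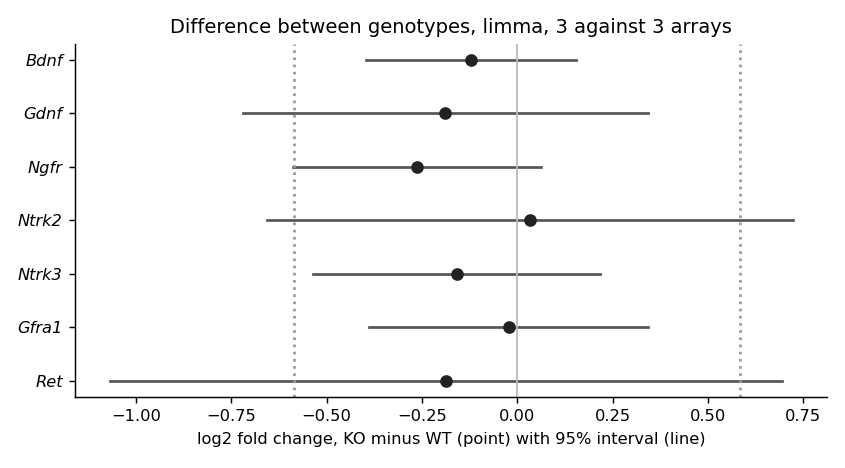
Log2 fold change, KO minus wild type, of the 7 measured genes (points) with 95% confidence intervals from limma (lines), 3 arrays a group; dotted lines mark a 1.5-fold difference either way. All 7 intervals span 0, and those of Bdnf, Ntrk3 and the brighter probe set of Gfra1 lie within the dotted lines.

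How far the arrays bound a difference varied between the genes. For Bdnf the 95% interval of the KO to wild-type ratio ran from 0.759 to 1.11 and for Ntrk3 from 0.690 to 1.16. For the brighter probe set of Gfra1 it ran from 0.764 to 1.27. A 1.5-fold change in either direction lay outside these intervals, but not outside that of the dimmer Gfra1 probe set given below. For Ngfr the interval ran from 0.665 to 1.05 and for Gdnf from 0.607 to 1.27. It ran from 0.634 to 1.65 for Ntrk2 and from 0.477 to 1.62 for Ret. The last pair were the genes that varied most from array to array, 2.27-fold for Ntrk2 and 2.59-fold for Ret between the lowest and the highest array, against 1.20-fold for Bdnf.

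**Figure D2:**
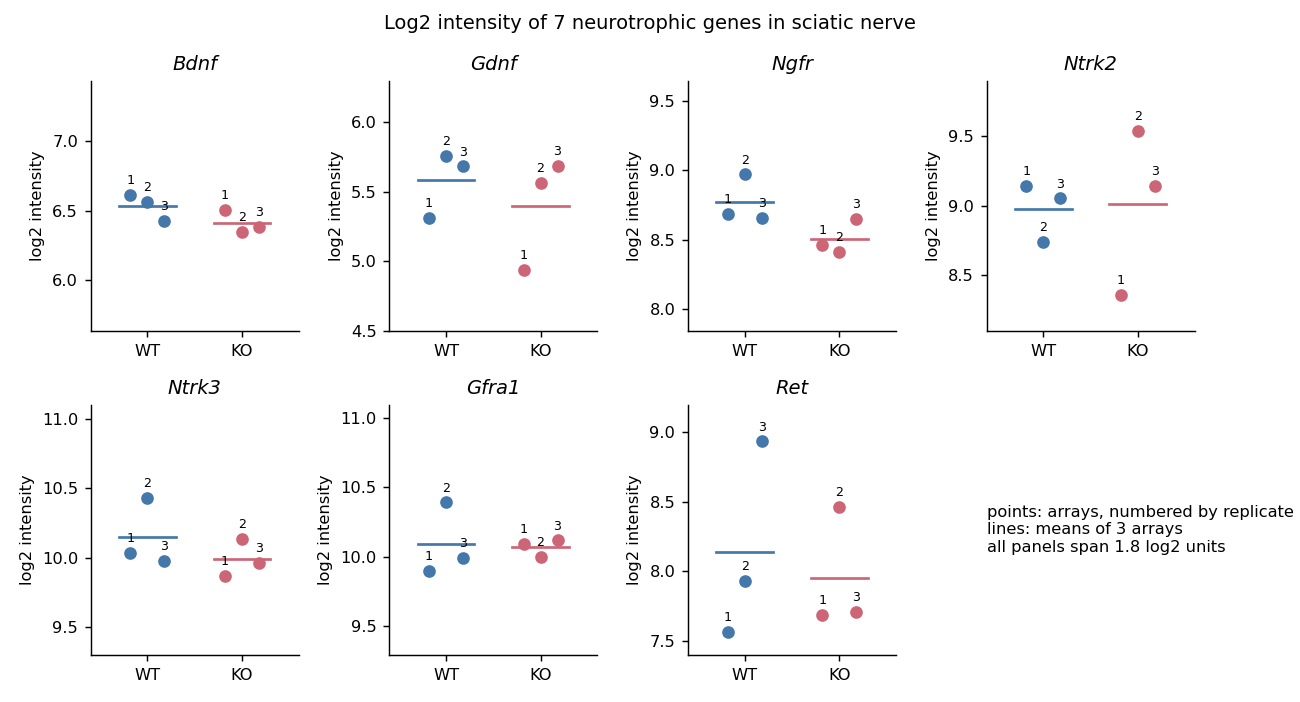
Log2 intensity of each gene on each array (points, numbered by replicate) with group means (lines) for wild type (WT) and Srebf-1c KO; every panel spans 1.8 log2 units. The groups overlap in all genes but Ngfr, and the widest spread between arrays is that of Ret, from 7.56 to 8.93.

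Among the ligands, Bdnf, the neurotrophin that activates TrkB, had a log2 intensity of 6.62, 6.56 and 6.43 in wild type, against 6.51, 6.35 and 6.38 in KO. The lowest wild-type array lay below the highest KO array, and the groups overlapped. Its log2 fold change was -0.12 ± 0.12 (SE; limma adjusted p = 0.915). Gdnf, the ligand of GFRα1 and Ret, stood at 5.32, 5.76 and 5.68 in wild type, against 4.94, 5.56 and 5.69 in KO. KO replicate 1 was the lowest and the other KO arrays lay within the wild-type range. The log2 fold change of Gdnf was -0.19 ± 0.23 (SE; limma adjusted p = 0.937), and it was 0.041 without KO replicate 1.

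Both ligand genes were dim. The mean intensity of Gdnf lay in the 17.4th percentile of all genes and above that of 77.3% of 1105 olfactory receptor genes, a family with no known use in nerve that was taken as a guide to background after the values were seen. For Bdnf the percentile was 34.5 and the share was 93.7%. Brightness also depends on the probes, so these positions only place the signal beside that guide and do not rank the transcripts. Some olfactory receptor genes were brighter than Gdnf, so a signal of Gdnf over background was not shown. The deposited table holds no detection calls, and a dim probe set can understate a difference.

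Ngfr encodes p75, the receptor for all neurotrophins and a marker of Schwann cells that do not make myelin. It had a log2 intensity of 8.69, 8.97 and 8.66 in wild type, against 8.46, 8.42 and 8.65 in KO. Every KO array lay below every wild-type array, but KO replicate 3 and wild-type replicate 3 were only 0.0039 apart. The mean was 8.77 ± 0.17 (SD, n = 3) in wild type and 8.51 ± 0.13 (SD, n = 3) in KO, 0.834 of the wild-type level. The log2 fold change of -0.26 ± 0.14 (SE) did not pass (limma adjusted p = 0.870), and the two-sided exact permutation p was 0.1, the smallest that 3 arrays against 3 can give. Without wild-type replicate 2, the array with the highest Ngfr, the log2 fold change was -0.16. Ngfr was thus the 1 of 7 genes with all KO arrays lower, an order seen in 8.21% of all genes, and 0 of 7 had all KO arrays higher, seen in 4.08%. The order of the arrays did not hold after quantile normalization or with the arrays at 1 median, where the groups of Ngfr overlapped and its log2 fold change was -0.19 and -0.23.

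Neither Trk receptor gene passed the test, and their means differed in opposite directions. Ntrk3, which encodes TrkC, was at 10.03, 10.43 and 9.98 in wild type, against 9.87, 10.13 and 9.96 in KO. Wild-type replicate 2 was the highest and the remaining arrays lay close together. The log2 fold change was -0.16 ± 0.16 (SE; limma adjusted p = 0.920), and -0.017 without wild-type replicate 2. Ntrk2, which encodes TrkB, was at 9.14, 8.74 and 9.05 in wild type, against 8.36, 9.54 and 9.14 in KO. The lowest and the highest of the 6 arrays were both KO, so the spread within KO (SD 0.60) exceeded that in wild type (SD 0.21). The log2 fold change was 0.033 ± 0.29 (SE; limma adjusted p = 0.995), and it turned from -0.23 without KO replicate 2 to 0.36 without KO replicate 1. A truncated TrkB without the kinase is known from non-neuronal cells, and a value for the whole gene does not tell the forms apart.

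Of the GDNF receptors, Gfra1 stood at 9.90, 10.39 and 9.99 in wild type, against 10.09, 10.00 and 10.12 in KO. The KO arrays were close to each other (SD 0.062) and all lay inside the wild-type range. The log2 fold change was -0.023 ± 0.16 (SE; limma adjusted p = 0.992), and 0.13 without wild-type replicate 2. A dimmer probe set of Gfra1 gave 6.48, 6.75 and 5.92 in wild type, against 6.52, 6.14 and 5.86 in KO, with a log2 fold change of -0.21 ± 0.25 (SE). The groups overlapped there too. Ret, the signalling partner of the GFRα receptors, stood at 7.56, 7.93 and 8.93 in wild type, against 7.69, 8.46 and 7.71 in KO. Wild-type replicate 3 and KO replicate 2 stood above the other arrays. The log2 fold change of Ret was -0.19 ± 0.37 (SE; limma adjusted p = 0.969), and it was 0.21 without wild-type replicate 3.

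Some arrays stood high or low for several of these genes at once. Ngfr, Ntrk3, Gfra1 and Gdnf all had their highest value on wild-type replicate 2, where 23.8% of all genes were highest. The markers of the Schwann lineage, 5 of 8, and of myelinating Schwann cells, 5 of 7, were highest there as well. The 8 lineage markers were Sox10, S100b, Erbb3, Ncam1, L1cam, Scn7a, Gfap and Cdh2. This list also covers Schwann cells that do not make myelin. The mean log2 level of the 8 was 10.59, 10.98 and 10.38 in wild type, against 10.68, 10.62 and 10.75 in KO. Their summed intensity ran from 15470 to 21940 in wild type and from 17350 to 19680 in KO. Markers of skeletal muscle had their lowest mean on the same array, 11.37 against 11.77 to 12.88 on the others. In whole nerve, fewer cells of a type and less RNA per cell cannot be told apart.

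The 8 Schwann lineage markers include those of Schwann cells that do not make myelin, which Ngfr also marks. Set against their mean within each array, Ngfr stood at -1.90, -2.01 and -1.72 log2 units in wild type. In KO it stood at -2.22, -2.21 and -2.10. All KO arrays were lower than all wild-type arrays, with a gap of 0.084, and the mean difference was -0.30 (two-sided exact permutation p = 0.1, the smallest possible). Ngfr already had this order before the markers were set beside it, and the p follows from the order. The share of all genes with this order on the same scale was not counted. The values themselves depend on the probes, and the difference between the genotypes does not show which side of the ratio it came from. The same comparison, added after the values were seen, gave -0.19 for Ntrk3 (exact permutation p = 0.3), -0.056 for Gfra1 (exact permutation p = 0.8) and 0.0006 for Ntrk2 (exact permutation p = 1), and for these 3 receptor genes the groups overlapped. These p-values are unadjusted, and an adjustment over the 4 genes would raise that of Ngfr above 0.1.

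The arrays on which Ret was high were those with the most adipocyte marker signal. The mean log2 level of 9 adipocyte markers, among them Adipoq, Plin1 and Lep, was 8.79, 9.47 and 11.42 in wild type, against 8.74, 11.31 and 8.64 in KO. All 9 were highest of the wild-type arrays on replicate 3 and highest of the KO arrays on replicate 2, as was Ret, a pattern held by 14.2% of all genes. None of the 9 was at 0, and the lowest stood at 6.99. Without these arrays, an alternative added after seeing the data, the log2 fold change of Ret was -0.046. The same arrays were also the highest of their genotype for the mean of the macrophage markers (8.81 and 8.81), of the endothelial and pericyte markers (10.71 and 10.57) and of the fibroblast and perineurial markers (11.41 and 11.51). The part of fat tissue or of these cells in the level of Ret was not tested.

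The genes whose profile over the 6 arrays was closest to that of Ret, by root mean square distance of centred log2 values, were Adh7 at 0.080, L3hypdh at 0.083 and Ffar4 at 0.092. Each was highest on wild-type replicate 3, at 7.50, 8.02 and 7.30, and next on KO replicate 2, at 7.16, 7.67 and 6.66. They were picked for their likeness to Ret over the same 6 arrays, so the shared order follows from the choice.

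The lowest array for Ntrk2, KO replicate 1, was also the lowest of all 6 for the mean of 8 macrophage markers and of 8 fibroblast and perineurial markers. Macrophage markers had a mean log2 level of 8.02, 8.12 and 8.81 in wild type, against 7.85, 8.81 and 8.29 in KO, and 5 of 8 were lowest of the 6 on that array. Their summed intensity ran from 2290 to 4329 in wild type and from 2076 to 4476 in KO. Fibroblast and perineurial markers stood at 10.87, 11.16 and 11.41 in wild type, against 10.82, 11.51 and 11.18 in KO, highest on KO replicate 2 like Ntrk2, with a summed intensity from 21550 to 27590 in wild type and from 22320 to 30590 in KO. In wild type the order differed: Ntrk2 was highest on replicate 1, where both lists had their lowest wild-type mean. No marker of either list was at 0, and the part of these cells in the level of Ntrk2 was not tested. The share of all genes lowest on KO replicate 1 was not counted.

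**Figure D3:**
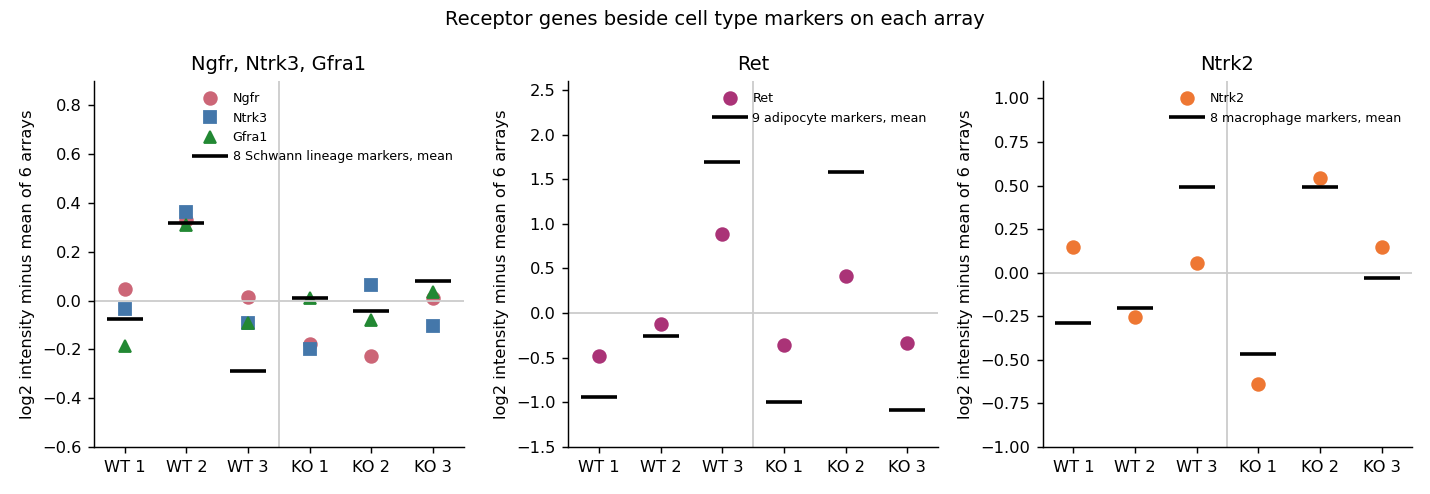
Log2 intensity minus the mean over the 6 arrays for receptor genes (coloured points) and for the mean of a list of cell type markers (black bars), by array. Ngfr, Ntrk3 and Gfra1 peak with the Schwann lineage markers on wild-type (WT) replicate 2, Ret is high with the adipocyte markers on wild-type replicate 3 and KO replicate 2, and Ntrk2 is lowest with the macrophage markers on KO replicate 1 but highest of the wild-type arrays on replicate 1, where those markers are lowest of the wild-type arrays.

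Neuronal transcripts, which in nerve can come from axons or from adhering ganglion or root tissue, had their own order. The mean log2 level of 8 neuron markers was 8.39, 7.48 and 7.21 in wild type, against 7.41, 7.91 and 8.00 in KO, with a summed intensity from 1671 to 6095 in wild type and from 1968 to 4288 in KO. Their highest array, wild-type replicate 1, was also the highest for Bdnf, and their lowest in KO, replicate 1, was the highest for Bdnf in KO. The skeletal muscle markers were highest of each genotype on these same arrays, at a mean of 12.88 and 12.82. The other wild-type arrays stood in another order for Bdnf than for the muscle markers. The part of nerve cells or muscle in the level of Bdnf was not tested. Unlike Bdnf, Ntrk2 had the same extremes as the neuron markers, highest of the wild-type arrays on replicate 1 and lowest of the KO arrays on replicate 1. The other arrays of each genotype stood in another order for Ntrk2 than for the neuron markers. The part of neuronal transcripts in the level of Ntrk2 was not tested.

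The rest of the pathway held no gene that passed either. Of 69 further genes in 6 lists, 61 were measured. In limma 0 of the 61 passed adjusted or at an unadjusted p under 0.05, against 0.00451% and 5.83% of all genes. The unmoderated test had 2, Clcf1 and Sos1, at an unadjusted p under 0.05, as had 6.37% of all genes, and 0 after adjustment. The mean was lower in KO in 44 and higher in 17, where 56.9% of all genes had a lower mean. The median log2 fold change was -0.079, against -0.032 over all genes. The share of 56.9% also stands beside the count of each list below. All KO arrays were lower for 2 of the 61, Clcf1 and Nenf, and higher for 1, Sos1, orders held by 8.21% and 4.08% of all genes.

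Among 6 other neurotrophin ligands and receptors 3 had a lower mean, with Nradd, a relative of p75, at -0.19 ± 0.15 (SE) and the sortilin relative Sorcs3 at 0.14 ± 0.21. Among 7 further genes of the GDNF family 5 had a lower mean. Gfra3, the receptor of the ligand artemin, had a log2 intensity of 7.07, 7.92 and 7.69 in wild type, against 7.05, 7.16 and 6.99 in KO. Wild-type replicate 1 lay inside the KO range, and the log2 fold change of -0.49 ± 0.22 (SE) did not pass (limma adjusted p = 0.858). Gfral, the dim receptor gene for GDF15, stood at -0.21 ± 0.14 (SE).

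The receptor side of CNTF was measured although the ligand was not. Cntfr, the subunit that binds CNTF, stood at 10.16, 9.62 and 9.78 in wild type, against 9.47, 10.22 and 9.38 in KO. KO arrays held both the highest and the lowest value, and the log2 fold change was -0.16 ± 0.25 (SE; limma adjusted p = 0.955). Of the 10 measured genes of this cytokine family 7 had a lower mean. Clcf1, another ligand of the CNTF receptor, stood at -0.18 ± 0.11 (SE) with all KO arrays lower, and Il6 at -0.45 ± 0.20 (SE), from a signal in the 3.11th percentile of all genes.

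Adaptors and signalling partners of the receptors had a lower mean in 15 of 20 genes. Sos1, which loads Ras with GTP after receptor activation, stood at 0.19 ± 0.11 (SE) with all KO arrays higher, and Frs3, an adaptor of Trk receptors, at -0.15 ± 0.12. Proteases that cut the neurotrophin precursors had a lower mean in 5 of 8, with Furin at -0.13 ± 0.12 (SE) and the plasminogen gene Plg at 0.28 ± 0.18. Of 10 other secreted trophic factors 9 had a lower mean, with pleiotrophin, Ptn, at -0.28 ± 0.19 (SE) and neudesin, Nenf, at -0.28 ± 0.14. None of these genes passed the test.

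**Figure D4:**
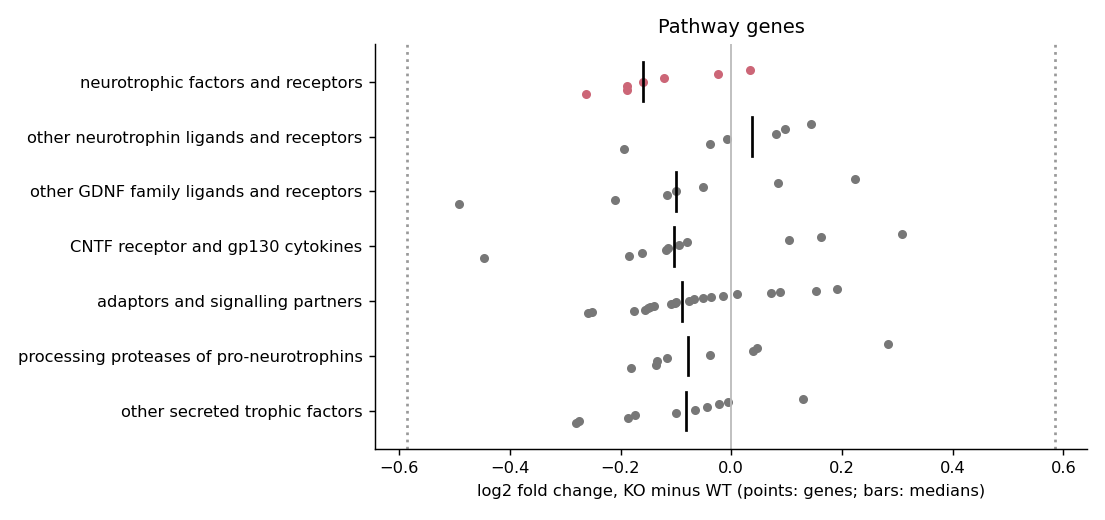
Log2 fold change, KO minus wild type, of each measured gene (points) in the set of 7 neurotrophic factors and receptors and in 6 lists of related genes, with list medians (bars); dotted lines mark a 1.5-fold difference. No gene reaches a dotted line, the lowest being Gfra3 at -0.49 and the highest Il6ra at 0.31.

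Of 6 markers of Schwann cells after nerve injury other than Gdnf, the state in which Schwann cells are known to raise p75 and GDNF, none passed the test. Their mean log2 level was 7.46, 7.42 and 7.26 in wild type, against 7.44, 7.45 and 7.52 in KO, which overlapped between the groups. Their summed intensity, to which the brightest gene Jun gave the most, ran from 1564 to 1697 in wild type and from 1759 to 1978 in KO and did not overlap. The difference in the sums was not tested. Jun itself stood at 9.70, 9.70 and 10.11 in wild type, against 10.19, 10.14 and 9.84 in KO, where the groups overlapped.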

How the data were processed

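The authors deposited 1 intensity per probe set and array. Per the labels' protocols and the series' design text, total RNA was labelled for whole-transcript arrays, and RMA (Robust Multichip Average), run in TAC and Partek, gave background-corrected, normalized values; their range shows a linear scale. Software versions: not given in the sources used here. The source label of the KO samples reads wild type, so groups follow titles and genotype labels.

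Log2 was taken with no pseudocount. Of 41077 probe sets, 23521 carried 1 symbol in the platform annotation, and the brightest stood for a gene with several. All 22180 genes were fitted with limma 3.58.1 (lmFit, eBayes; R 4.3.3), KO minus wild type, with Benjamini-Hochberg adjustment; the fit was checked on simulated data. Exact permutation tests used scipy 1.17.1. Dim genes were not filtered, and precision is limited by 3 arrays a group. The members and lists were chosen with earlier results of these data known. Named were all members, Cntfr, the 2 genes of smallest p in each pathway list and the 3 nearest profiles to the widest-ranging member above median intensity; Il6ra was named after its value was seen. Alternatives were a replicate block, ANOVA, an intensity trend, leaving out the dimmest 50%, quantile normalization, 1 median, probe set means and leaving out arrays.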

Additional observations from a re-analysis of the deposited data

How the results depend on the processing

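No member passed an adjusted p of 0.05 or met the 1.5-fold criterion in any of the 14 settings, and no gene of the pathway lists passed. Of 96 member values under these settings, 86 kept their direction and 10 turned. With quantile normalization and with 1 median Gfra1 turned to 0.0099 and 0.0083, and 0 members had groups without overlap in either setting. Without wild-type replicate 3 and KO replicate 2 together Ntrk2 turned to -0.19 and 3 members did not overlap. Groups of fewer arrays overlap less readily, and the share of all genes without overlap in that setting was not counted. Leaving out 1 array at a time, log2 fold changes ran from -0.33 to 0.041 for Gdnf and -0.33 to -0.16 for Ngfr. They ran from -0.23 to 0.36 for Ntrk2, -0.12 to 0.13 for Gfra1 and -0.48 to 0.21 for Ret. In these settings 1 to 2 members did not overlap, with fewer arrays to overlap. The share of all genes without overlap was not counted there either, so these counts cannot be read against it. The cause of the other turns was not tested. Without the dimmest 50% of genes Bdnf and Gdnf were not tested.

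Same-numbered arrays deviated together at r = 0.12, 0.012 and -0.23 across genes. Differently numbered arrays ran from -0.26 (wild-type replicate 1 and KO replicate 2) to 0.28 (wild-type replicate 3 and KO replicate 2). Same-numbered arrays thus did not stand out. Other differences between arrays, such as the amount of fat, can mask a pairing, so whether the numbers pair the samples was not settled. With the replicate block 0 members passed, and Ngfr had an adjusted p of 0.823 in limma.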
